A study of Mus musculus with 24 samples.

Results

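The 10 genes described here encode the ligands, carriers, receptors and adaptors of insulin and insulin-like growth factor (IGF) signalling. They were chosen by symbol: Igf1, Igf2, Igfals, Igfbp1, Igfbp2, Igfbp3, Insr, Igf1r, Irs1 and Irs2. All 10 had at least 1 probe on the array, out of 21371 genes with a symbol. Transcript levels were measured on 24 arrays, 1 for each of 4 tissues (liver, brain, heart, skeletal muscle) from 6 females. In 3 mice (A, B and C) Rap1 carried the homozygous I312R knockin (KI) allele, and 3 mice (D, E and F) were wild type (WT). The allele, made with Cas9 and crossed back to C57BL6 mice (C57BL/6N in the study's methods), gives a RAP1 protein that cannot bind TRF2, its anchor in the telomere complex shelterin. It is present in every cell of the animal. Age was 14 months in 1 mouse of each genotype (C and F) and 15 months in the rest. No other treatment is given in the labels. The study found less RAP1 protein, and a larger share of it in the cytosol, in KI embryonic fibroblasts and brain. The comparison between genotypes asks whether the allele alters transcription of this pathway. In it the lower amount and the changed place of RAP1 cannot be told apart. The comparison between tissues shows where each gene was expressed.

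IGF1 is the hormone through which growth hormone drives much of body growth, and the liver is its main source in blood. In blood IGF1 and IGF2 travel bound to IGF binding proteins, chiefly in a complex of IGFBP3 and the acid-labile subunit (encoded by Igfals). IGF1 and insulin act through the related receptor tyrosine kinases IGF1R and INSR, whose signal is passed by the adaptors IRS1 and IRS2 to PI3 kinase and AKT. AKT excludes the FOXO factors from the nucleus, and FOXO factors drive Igfbp1 and Irs2, so that insulin lowers both transcripts in liver.

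Promoter sequences of 9 members were found in RefSeq (build GRCm38.p6), in 15 windows of 250 bases before an annotated start. They are shown for 3 members whose known regulation can be read in the letters. Capitals mark matches on either strand to the insulin response element bound by FOXO factors (CAAAACAA), to a shorter FOXO core (TGTTTAC) and to the site of STAT5 (TTCNNNGAA), the factor activated by growth hormone. The windows lie at chr11:7197537-7197786 on the plus strand for Igfbp1, chr17:24877981-24878230 on the plus strand for Igfals (the second of 3 annotated starts) and chr8:11008930-11009179 on the minus strand for Irs2.
Igfbp1: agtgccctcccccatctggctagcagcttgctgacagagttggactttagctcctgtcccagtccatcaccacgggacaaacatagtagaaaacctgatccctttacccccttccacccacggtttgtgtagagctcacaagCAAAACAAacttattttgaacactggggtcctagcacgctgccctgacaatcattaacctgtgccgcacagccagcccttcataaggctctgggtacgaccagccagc
Igfals: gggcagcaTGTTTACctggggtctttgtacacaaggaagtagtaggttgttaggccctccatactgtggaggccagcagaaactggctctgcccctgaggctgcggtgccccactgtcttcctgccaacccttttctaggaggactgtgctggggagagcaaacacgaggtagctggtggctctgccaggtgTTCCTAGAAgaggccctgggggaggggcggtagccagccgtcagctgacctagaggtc
Irs2: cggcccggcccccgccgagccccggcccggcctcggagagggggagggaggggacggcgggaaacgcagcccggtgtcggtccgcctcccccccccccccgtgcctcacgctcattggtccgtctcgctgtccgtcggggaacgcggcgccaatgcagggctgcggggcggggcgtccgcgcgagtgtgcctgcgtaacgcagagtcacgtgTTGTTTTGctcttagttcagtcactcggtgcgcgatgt
CAAAACAA was present in the windows of Igfbp1, Irs1 and Irs2 and in 2.21% of 32851 mouse promoter windows of the same length. Counted from the start, the first base of the match was at -108 in Igfbp1, at -38 in Irs2 and at -33 in Irs1, in the last 2 on the opposite strand. The STAT5 letters were present at 2 of the 3 Igfals starts and in 7.02% of all windows. The FOXO core was found in 1 Igfals window and in 3.17% of all windows. A match to the site of HNF1, a factor of liver genes, present in 0.0548% of all windows, was found in no member's window, which says only that these letters are not there.

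Levels are log2 values of the processed signal, with the array's own 75th percentile subtracted, so a level of 0 is a bright probe at that percentile and 1 unit is a doubling of signal. Levels of different genes come from different probes and are not compared. Terf2ip, the gene of RAP1, had KI minus WT differences of -0.33, -0.13, -0.15 and -0.07 in the order liver, brain, heart, muscle, with limma adjusted p from 0.516 to 1.00. Whether its probe covers the mutated site was not examined, so these levels do not check the genotype labels. Hepatocyte (mean 8.09 to 8.88 in liver), neuron (5.63 to 6.01 in brain), cardiomyocyte (7.66 to 8.10 in heart) and muscle fibre markers (7.32 to 8.08 in muscle) were high where the labels place them. In each tissue, however, 1 KI array stood apart in transcripts of another tissue. The brain of KI mouse C had all 10 hepatocyte genes above every other brain, at a mean level of 3.78 against at most -2.61. The heart of KI mouse B had 6 of 7 adipocyte genes above every other heart, at a mean of 1.33 against at most -0.14. The liver of KI mouse C had 7 of 8 skeletal fibre genes above every other liver (mean -0.08 against at most -4.52). The muscle of KI mouse B had 8 of 9 mammary epithelium genes above every other muscle (mean -1.28 against at most -5.03), with 7 of the 9 well above background there. Without these 4 arrays together, 22 of 30 differences between tissues next to each other in a member's order moved by under 0.3, and the largest move was 0.87 (Igfals, heart minus brain). Values without an array are given below where they moved further or where a result rests on that array. Signal of other tissues was not limited to these 4 arrays. All 7 adipocyte genes were well above background in every muscle of both genotypes (mean 2.33 to 4.29). In the muscle of WT mouse E, 6 of 10 hepatocyte genes lay above every other muscle (mean -2.55 against at most -2.96). The part of adipocytes in the muscle levels was not tested.

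Tissue set the level of most members. By a limma fit over all 24 arrays, 9 of 10 members differed between liver and brain at an adjusted p under 0.05, where 84.3% of all 17294 genes tested did. The count was 8 between liver and heart (74% of genes), 9 between liver and muscle (79.2%), 8 between brain and heart (79.3%), 9 between brain and muscle (82.1%) and 5 between heart and muscle (64.7%). These shares are close to those of all genes, so the number of members called says little and the results lie in which tissue each gene marked. The counts of brain against heart and of brain against muscle include Igfbp1. It was well above background on no heart or muscle array and on 4 of 6 brain arrays, so its calls there rest on dim signals. RNA of brain and liver was prepared with another kit than RNA of heart and muscle, and kit and tissue cannot be told apart. In whole tissue, fewer expressing cells and less RNA per cell cannot be told apart either.

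**Figure D1:**
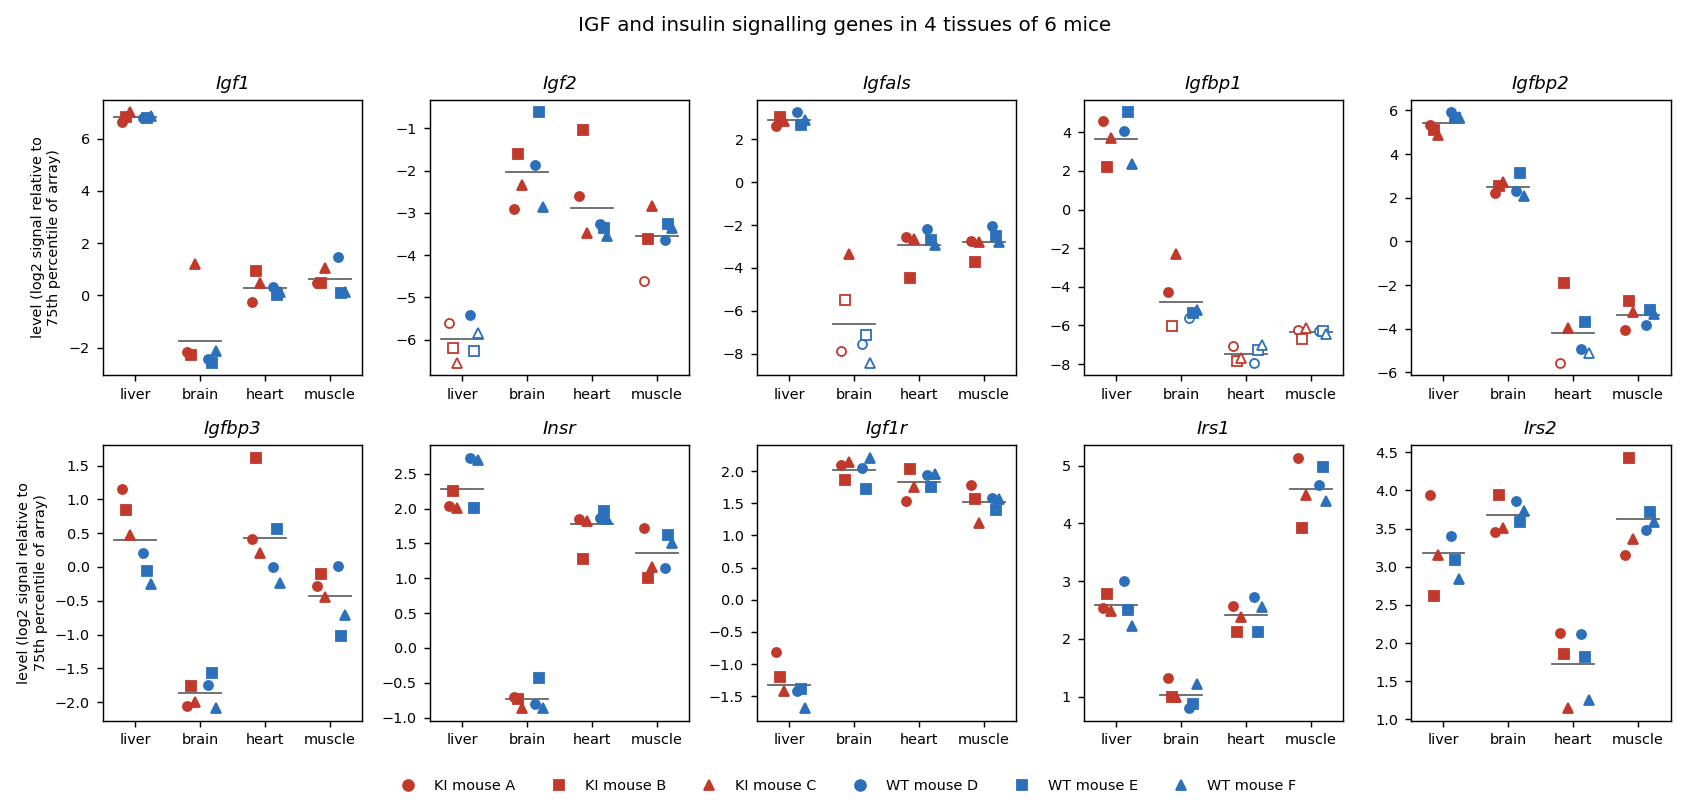
Level of each of the 10 genes (y axis, log2 signal minus the array's 75th percentile) in the 4 tissues (x axis). Each point is 1 array, in red for KI and blue for WT with a symbol for each mouse, open where the probe was not well above background, and the grey line is the mean of the 6 arrays. Igf1, Igfals, Igfbp1 and Igfbp2 were highest in liver and Igf1r was lowest there. The brain of KI mouse C lies above the other brains for Igf1, Igfals and Igfbp1.

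Igf1, the ligand made in liver under growth hormone, was the clearest liver gene among the ligands. In liver its level lay between 6.64 and 7.01 with a median of 6.82, the smallest spread of any member in any tissue (SD 0.12, n = 6). In muscle it ran from 0.09 to 1.46 with a median of 0.47, and in heart from -0.24 to 0.94 with a median of 0.23. No array of muscle or heart came near the liver range. The liver exceeded muscle by 6.21 ± 0.43 (SE, limma adjusted p = 1.27e-10), a fold of 74.3. Muscle and heart differed by 0.34 ± 0.43 (SE), which did not pass the test (95% interval of heart minus muscle -1.25 to 0.58). In brain 5 arrays lay between -2.57 and -2.12, and the array of KI mouse C lay at 1.19. Heart exceeded brain by 2.0 ± 0.43 (SE, limma adjusted p = 3.55e-04), and by 2.57 without that array.

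Igf1 was covered by 4 probes, which gave the same order of liver above heart and muscle and of these above brain, but not the same sizes. The probe used and 1 other gave liver minus brain differences of 8.55 and 8.70 (9.14 and 9.29 without the brain of KI mouse C), and the other 2 gave 6.14 and 6.08 (6.24 for both without it). The first pair also set the brain of KI mouse C furthest apart, at 1.19 and 1.08 against at most -2.12 and -2.26 in the other brains. The remaining probes read -3.42 and -0.22 in that brain, against at most -3.77 and -0.83 in the others. All 4 probes therefore placed it above the other 5 brains.

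Igf2, the fetal growth factor that in adult brain is made by choroid plexus and meninges, had the opposite pattern. Its level in brain ran from -2.91 to -0.62 with a median of -2.10, in heart from -3.55 to -1.05 with a median of -3.31, and in muscle from -4.61 to -2.84 with a median of -3.49. In liver it was well above background on 1 of 6 arrays. The brain mean of -2.03 was at least 7.48-fold above the liver, whose values were raised to the lowest signal well above background on each array. Brain exceeded muscle by 1.53 ± 0.41 (SE, limma adjusted p = 0.00209). Brain and heart differed by 0.85 ± 0.41 (SE, adjusted p = 0.0634), and by 1.18 (adjusted p = 0.00816) without the heart of KI mouse B. Heart and muscle differed by 0.67 ± 0.41 (SE, adjusted p = 0.156), which was 0.34 without the heart of KI mouse B and was 0.95 (adjusted p = 0.0468) without the heart of KI mouse C.

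The brain arrays differed in Igf2 more than the genotypes did, in part alongside choroid plexus genes. Igf2 in brain was -2.91, -1.60 and -2.34 in KI mice A, B and C and -1.86, -0.62 and -2.85 in WT mice D, E and F. The mean of 6 choroid plexus genes (Kl, Folr1, Kcnj13, Clic6, Otx2 and Slc4a5) was -0.07, 0.35 and 1.34 in the KI brains and 0.92, 1.39 and -0.25 in the WT brains. Igfbp2, another gene of the choroid plexus and the glia, was 2.23, 2.53 and 2.70 in the KI brains and 2.32, 3.12 and 2.06 in the WT brains. KI mouse A and WT mouse F were the lowest in Igf2, Igfbp2 and the choroid plexus mean, and WT mouse E was the highest in each. KI mouse C was an exception. Its choroid plexus mean of 1.34 was next to the highest, but its Igf2 of -2.34 was below KI mouse B and WT mice D and E. The mean of 5 leptomeninges genes, the other known source of Igf2, was 0.83, 1.14 and 1.62 in the KI brains and 1.19, 1.07 and 1.00 in the WT brains. Its order was another one, with KI mouse C highest and WT mouse E, the highest in Igf2, below KI mice B and C and WT mouse D. The genotypes overlapped in Igf2 (KI minus WT -0.50 ± 0.58, SE) and in Igfbp2, and the part of plexus or meninges in their levels was not tested.

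**Figure D2:**
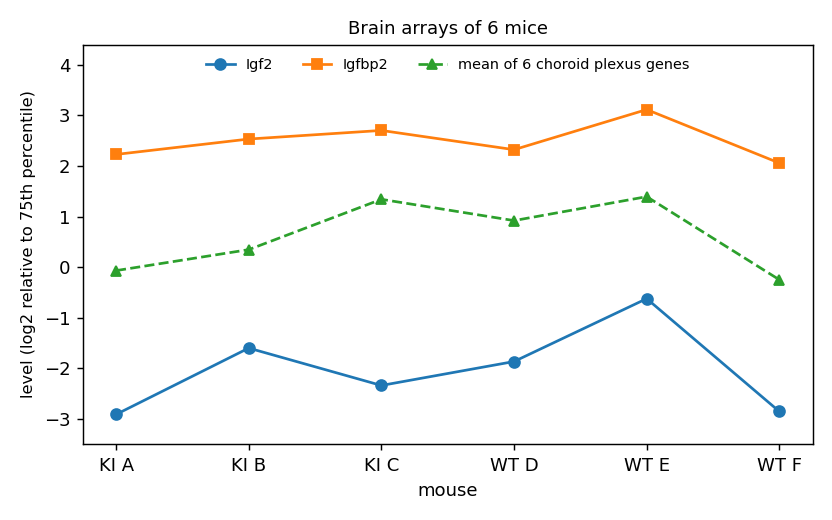
Level of Igf2, Igfbp2 and the mean of 6 choroid plexus genes (y axis, log2 signal minus the array's 75th percentile) in the brain of each mouse (x axis, 3 KI and 3 WT). The lines join values of the same measure to ease reading and carry no order. KI mouse A and WT mouse F are low and WT mouse E is high in all 3 measures. KI mouse C is high in the choroid plexus mean but not in Igf2.

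Among the carriers, Igfals, Igfbp1 and Igfbp2 were liver genes and Igfbp3 was not. Igfals, which stabilizes the circulating IGF complex, ran from 2.61 to 3.25 in liver with a median of 2.88, from -3.74 to -2.03 in muscle with a median of -2.77 and from -4.47 to -2.20 in heart with a median of -2.67. The liver exceeded muscle by 5.66 ± 0.52 (SE, limma adjusted p = 8.26e-09), a fold of 50.4. Muscle and heart did not differ beyond their spread (heart minus muscle -0.14, 95% interval -1.24 to 0.96). In brain Igfals was well above background on 1 array, that of KI mouse C, where it read -3.34, and the liver was at least 359-fold above brain (at least 492-fold without that array).

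Igfbp1, the carrier that FOXO factors induce when insulin is low, was the most variable member in liver. Its level there was 4.57, 2.20 and 3.69 in KI mice A, B and C and 4.06, 5.04 and 2.36 in WT mice D, E and F. The highest liver (5.04) and the lowest (2.20) lay far apart, and each genotype spread over most of the range. The time since feeding is not given in the sources used here. Igfbp1 was not well above background on any heart or muscle array, so that liver was at least 509-fold above heart and at least 245-fold above muscle. In brain it was well above background on 4 of 6 arrays, with KI mouse C highest at -2.32, and the liver was at least 337-fold above brain (limma adjusted p = 1.26e-11) and at least 472-fold without that array. No fold of brain over muscle can be given, because the muscle arrays had a mean limit of -4.28, above the brain mean of -4.80.

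Igfbp2, a carrier of liver and nervous tissue, was high in both. It ran from 4.87 to 5.91 in liver with a median of 5.49, and from 2.06 to 3.12 in brain with a median of 2.43. In muscle its range was -4.04 to -2.73 with a median of -3.28, and in heart it was -5.54 to -1.88 with a median of -4.46 and 4 of 6 arrays well above background. The liver exceeded brain by 2.94 ± 0.43 (SE, limma adjusted p = 3.75e-06), and brain exceeded muscle by 5.88 ± 0.43 (SE, limma adjusted p = 2.39e-10). Both probes of the gene gave the same liver minus brain difference to within 0.02 (2.94 and 2.95). They differed for liver minus muscle (8.82 and 10.97) and liver minus heart (9.62 and 10.64). Muscle and heart differed by 0.80 ± 0.43 (SE, adjusted p = 0.111), and by 1.28 (adjusted p = 0.0020) without the heart of KI mouse B. The second probe placed muscle (mean -5.29, 1 of 6 arrays well above background) below heart (mean -4.96, 3 of 6). The order of muscle and heart was therefore not settled.

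Igfbp3, the main carrier in blood, was at similar levels in heart and liver. It ran from -0.23 to 1.62 in heart with a median of 0.31, from -0.25 to 1.16 in liver with a median of 0.34, from -1.02 to 0.01 in muscle with a median of -0.37 and from -2.09 to -1.58 in brain with a median of -1.88. Heart and liver differed by 0.03 ± 0.23 (SE, 95% interval of liver minus heart -0.51 to 0.44). The liver exceeded muscle by 0.82 ± 0.23 (SE, limma adjusted p = 0.00278), which fell to 0.21 and lost the call with slide as a block. Liver and muscle shared no slide, so the value with slide as a block rests on brain and heart arrays. Muscle exceeded brain by 1.45 ± 0.23 (SE, limma adjusted p = 8.93e-06). Igfbp3 and Igfbp1 are neighbours on chromosome 11 in GRCm38.p6, with starts 16.1 kb apart on opposite strands, and of the pair Igfbp1 was not well above background on any heart or muscle array while Igfbp3 was on all of them.

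The receptors ran in opposite directions between liver and brain. Insr, the insulin receptor, had its highest mean in liver, at 2.0 to 2.73 with a median of 2.15, and lowest in brain, at -0.86 to -0.43 with a median of -0.77. Heart lay at 1.27 to 1.97 with a median of 1.85 and muscle at 1.00 to 1.73 with a median of 1.33. Muscle exceeded brain by 2.09 ± 0.15 (SE, limma adjusted p = 2.43e-10). The steps from liver to heart (0.51 ± 0.15, SE, adjusted p = 0.00543) and from heart to muscle (0.41 ± 0.15, SE, adjusted p = 0.0248) were smaller. The step from heart to muscle lost its call without any 1 of 5 arrays (the heart of KI mouse A or C, or the muscle of KI mouse B or C or WT mouse D), with values from 0.34 to 0.38, and with slide as a block. The step from liver to heart (Insr, liver minus heart) was 0.31 (adjusted p = 0.058) with quantile normalization, and the other 2 of the 3 Insr probes gave 0.07 and -0.37 for it, so the order of liver and heart was not settled.

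Igf1r, the IGF1 receptor, was low in liver and differed less among the other tissues. It ran from -1.68 to -0.81 in liver with a median of -1.41, where the ligand Igf1 was at its highest. Brain lay at 1.72 to 2.21 with a median of 2.07, heart at 1.54 to 2.04 with a median of 1.84 and muscle at 1.20 to 1.79 with a median of 1.57. The liver range did not touch that of any other tissue. Muscle exceeded liver by 2.84 ± 0.13 (SE, limma adjusted p = 2.02e-13), a fold of 7.14. Brain exceeded muscle by 0.49 ± 0.13 (SE, limma adjusted p = 0.0018). Brain and heart did not differ beyond their spread (0.18 ± 0.13, SE), and the call between heart and muscle (0.31 ± 0.13, SE, adjusted p = 0.0425) was lost when any of 9 single arrays was left out, with values from 0.23 to 0.33.

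Irs1, the adaptor that links the insulin receptor to glucose uptake in muscle, was highest in muscle. It ran from 3.91 to 5.13 there with a median of 4.58, above every array of liver (2.22 to 3.00, median 2.51), heart (2.11 to 2.73, median 2.46) and brain (0.80 to 1.32, median 1.00). Muscle exceeded liver by 2.01 ± 0.19 (SE, limma adjusted p = 8.98e-09), and the second Irs1 probe gave 2.16. Liver and heart did not differ beyond their spread (0.18 ± 0.19, SE). Heart exceeded brain by 1.37 ± 0.19 (SE, limma adjusted p = 1.81e-06).

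Irs2, an adaptor known for its part in liver and in beta cells, was set apart by its low level in heart. It ran from 1.15 to 2.13 in heart with a median of 1.84, from 2.61 to 3.94 in liver with a median of 3.12, from 3.15 to 4.43 in muscle with a median of 3.53 and from 3.45 to 3.93 in brain with a median of 3.65. The liver exceeded heart by 1.45 ± 0.24 (SE, limma adjusted p = 2.41e-05). Brain and muscle differed by 0.06 ± 0.24 (SE) and muscle and liver by 0.45 ± 0.24 (SE, adjusted p = 0.0996), and neither passed the test. The sign of Irs2, brain minus muscle, was not settled, being 0.69 (adjusted p = 0.0157) under quantile normalization and -0.71 (adjusted p = 0.147) with slide as a block.

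The arrays that stood apart differed in the members concerned. The number of members outside the range of the other 5 arrays was 7 for the heart of KI mouse B, 6 for the muscle of KI mouse B, 4 for the liver of KI mouse C and 3 for the brain of KI mouse C. For any gene some array is highest and another lowest, and the shares over all genes are not given here. These counts alone therefore set no array apart. In the brain of KI mouse C, Igf1 was 3.51 above the mean of the others. Igfals was at least 2.72 above them, being well above background on 0 of those 5 arrays, and Igfbp1 at least 2.91 above them, with 3 of 5 above background. The other 7 members lay within the range of the 5 other brains. Those 3 are the members of highest level in liver relative to brain, and Igfbp2, whose liver and brain levels differ less, was 0.25 above the mean of the other brains. Kupffer cell genes (5 of 5) and liver sinusoidal endothelium genes (5 of 5) were also highest in that array. So were 4 of 5 leptomeninges, 4 of 7 adipocyte and 4 of 9 mammary epithelium genes, dim signals included. The part of transcripts of other tissues in the levels of that brain was not tested.

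In the heart of KI mouse B the members above all other hearts were Igfbp2 (by 2.76 over their mean, 2 of the 6 hearts not being well above background), Igf2 (by 2.20), Igfbp3 (by 1.43), Igf1 (by 0.80) and Igf1r (by 0.25). Igfals (by -1.87) and Insr (by -0.60) were below all other hearts. Besides the adipocyte genes, where Lep was not above background on any heart array, 6 of 10 hepatocyte genes and 3 of 5 Kupffer cell genes were highest in that heart. Its cardiomyocyte mean of 8.02 was within the range of the hearts, 7.66 to 8.10. The muscle of the same mouse was also lowest of the muscles in Igfals (-3.74 against -2.81 to -2.03) and Insr (1.00 against 1.15 to 1.73), and in Irs1 (3.91 against 4.38 to 5.13), and it was highest in Irs2 (4.43 against 3.15 to 3.71) and Igfbp2 (-2.73 against -4.04 to -3.13). The part of other cell types in these levels was not tested.

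**Figure D3:**
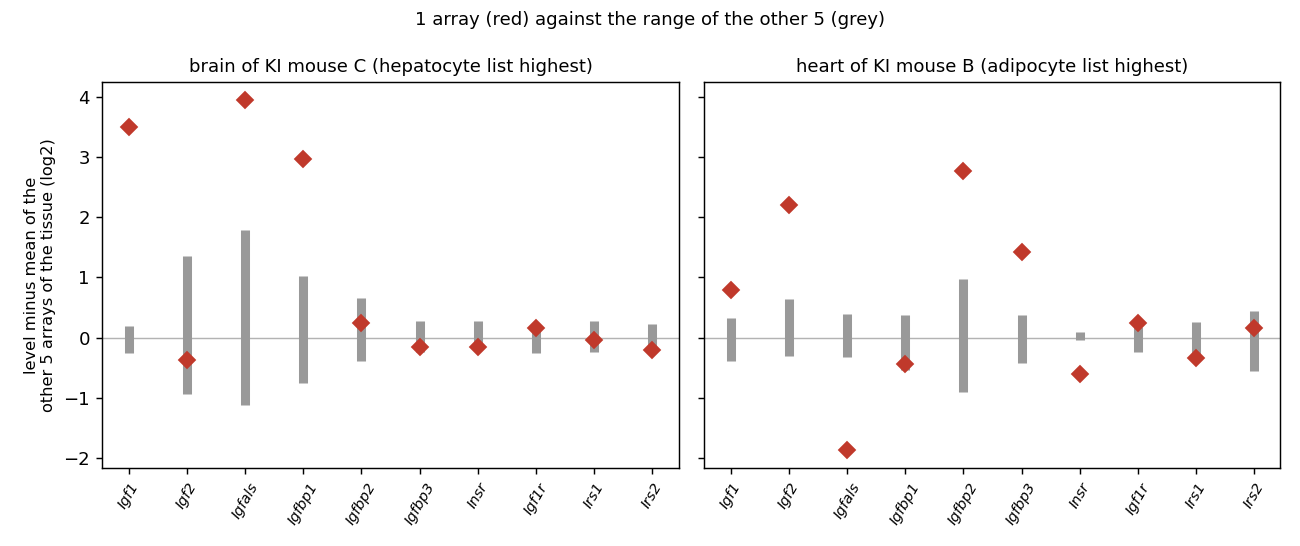
Level of each of the 10 genes on 1 array minus the mean of the other 5 arrays of that tissue (y axis, log2), for the brain of KI mouse C and the heart of KI mouse B. Red diamonds are that array and grey bars span the other 5, signals not well above background included (Igfals on all 5 other brains). Igf1, Igfals and Igfbp1 stand above the bars in the brain array, and Igf1, Igf2, Igfbp2, Igfbp3 and Igf1r above and Igfals and Insr below them in the heart array.

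No member differed between Rap1 KI and WT mice at an adjusted p under 0.05 in any tissue. Liver and muscle had 9 members tested each and brain and heart 8 each, those detected in full in 1 genotype or both (3 of 3 arrays well above background). No gene of the whole array passed either (0 of 14085 liver, 16065 brain, 14926 heart and 13514 muscle genes). At an unadjusted p under 0.05 the members numbered 2 in liver, where 11.7% of all genes were, and 0 in brain (0.791%), heart (1.63%) and muscle (0.851%). With 3 mice of each genotype the smallest p of an exact two-sided permutation test is 0.10. Members not tested were Igf2 in liver, Igfals and Igfbp1 in brain, Igfbp1 and Igfbp2 in heart, and Igfbp1 in muscle.

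In liver, 2 of the 9 members tested had genotypes that did not overlap, a share of 22.2% beside 19.7% of all genes tested there. The first was Igfbp2, at 5.34, 5.12 and 4.87 in KI mice A, B and C and 5.91, 5.65 and 5.69 in WT mice D, E and F. Every KI liver was below every WT liver. The means were 5.11 ± 0.23 (SD, n = 3) and 5.75 ± 0.14 (SD, n = 3), a difference of -0.64 ± 0.16 (SE, limma adjusted p = 0.358). The second probe of Igfbp2 gave -0.58.

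The second was Igfbp3, at 1.16, 0.84 and 0.48 in the KI livers and 0.21, -0.06 and -0.25 in the WT livers. Every KI liver was above every WT liver. The means were 0.83 ± 0.34 (SD, n = 3) and -0.03 ± 0.23 (SD, n = 3), a difference of 0.86 ± 0.21 (SE, limma adjusted p = 0.358). Over 12 alternatives on the log2 scale the difference stayed between 0.69 and 1.03 for Igfbp3 and between -0.75 and -0.52 for Igfbp2, with adjusted p from 0.347 to 0.804 for each. The far ends of both ranges, 1.03 and -0.52, were those without the liver of KI mouse C, the array with muscle fibre transcripts.

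Igfbp3 in liver comes from sinusoidal endothelium and Kupffer cells rather than hepatocytes, and markers of both lay apart by genotype here. The mean of 5 Kupffer cell genes (Clec4f, Vsig4, Marco, Timd4 and Cd5l) was 2.90, 3.16 and 3.32 in the KI livers and 2.65, 2.23 and 2.29 in the WT livers. The mean of 5 sinusoidal endothelium genes (Stab2, Stab1, Clec4g, Oit3 and Lyve1) was 2.96, 2.73 and 2.82 in the KI livers and 2.68, 2.65 and 2.28 in the WT livers. Both lists lay higher in every KI liver than in any WT liver, as did 12.2% of all single genes tested in liver. They were among 10 marker lists looked at. For sinusoidal endothelium KI mouse B (2.73) and WT mouse D (2.68) lay close together, and 1 of the 5 genes was highest in WT mouse D. The mean of the 10 hepatocyte genes overlapped, at 8.61 to 8.69 in KI and 8.09 to 8.88 in WT livers. The part of these cells in the Igfbp3 difference was not tested.

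The other members tested in liver lay between -0.38 for Insr and 0.36 for Igf1r. Insr was 2.04, 2.25 and 2.0 in the KI livers and 2.73, 2.0 and 2.70 in the WT livers, so that WT mouse E was level with the KI mice. Its 3 probes gave -0.38, -0.41 and 0.41 and did not share a direction. Igf1 in liver was 6.64, 6.85 and 7.01 in the KI and 6.79, 6.80 and 6.86 in the WT livers, a difference of 0.02 ± 0.13 (SE). The median over the members was 0.02, and over all genes tested in liver it was 0.04.

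In brain the member of smallest p was Igf1, at -2.16, -2.29 and 1.19 in KI mice A, B and C and -2.43, -2.57 and -2.12 in WT mice. The difference of 1.29 ± 0.88 (SE, limma adjusted p = 1.00) was set by the brain of KI mouse C, the array with hepatocyte transcripts, and was 0.15 without it. In heart it was Igf2, at -2.60, -1.05 and -3.47 in the KI hearts and -3.26, -3.36 and -3.55 in the WT hearts. Here the heart of KI mouse B, the array with adipocyte transcripts, set the difference of 1.02 ± 0.56 (SE, limma adjusted p = 0.971), which was 0.36 without it.

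In muscle it was Igfals, at -2.75, -3.74 and -2.80 in the KI muscles and -2.03, -2.52 and -2.81 in the WT muscles. The genotypes overlapped at the WT mouse F, and the difference was -0.64 ± 0.33 (SE, limma adjusted p = 1.00), or -0.32 without the muscle of KI mouse B. No member had genotypes that did not overlap in brain, heart or muscle, where 2.86%, 5.04% and 3.54% of all genes did. Whether the genotype difference varied between tissues was asked by a limma F-test over the 24 arrays. It passed for 0 of 10 members and 0 of 17294 genes, with 1.86% of genes and no member at an unadjusted p under 0.05. The smallest member p was 0.0503 for Igfals (adjusted p = 1.00).

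**Figure D4:**
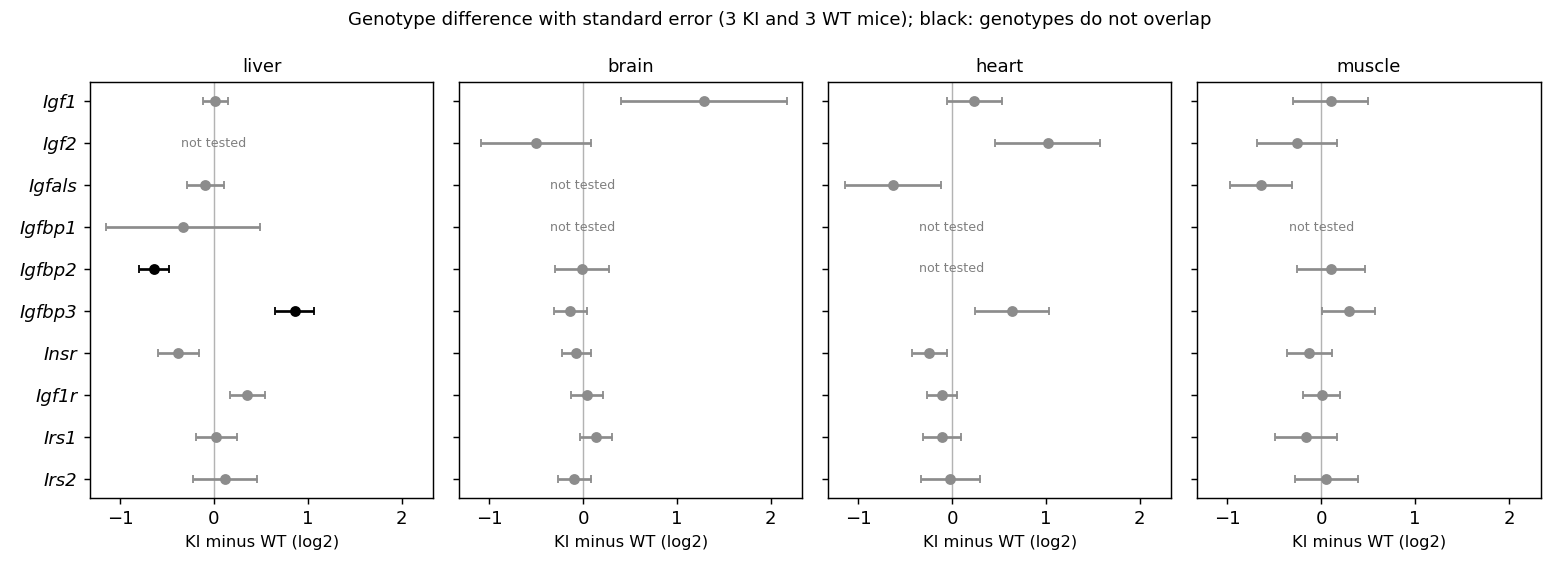
Difference between KI and WT means (x axis, log2) with its standard error for each member tested in each tissue, from 3 mice of each genotype. Igfbp2 (-0.64) and Igfbp3 (0.86) in liver, in black, are the members whose genotypes did not overlap. The wide bars of Igf1 in brain and Igf2 in heart go with 1 array each.

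Over the 24 arrays, the members fell into sets that shared a tissue order. Levels of Igf1 correlated across arrays with those of Igfals by 0.96 and of Igfbp1 by 0.87, and with those of Igf1r by -0.94. These coefficients are carried by the 4 tissues and describe the order of tissues, not a relation between mice. The genes most like each member over the same arrays, among 17293 others, were Fmo5 and Cd1d1 for Igf1 (r = 0.990 for both), Shmt1 (0.978) and Mfsd4b1 (0.975) for Igfals, and Bhmt2 (0.991) and Spp2 (0.989) for Igfbp1. For Igfbp2 they were Sema4g (0.989) and Faah (0.986), and for Igf1r Tspan13 (0.993) and Fam102b (0.992). Insr was followed by Mccc2 (0.982) and Mmut (0.981), and Irs1 by Tab2 (0.986) and Sypl (0.984). The nearest genes were less close for Igf2 (Dtx3, 0.935, and B3galt4, 0.930), Igfbp3 (Myo1g, 0.935, and Pirb, 0.934) and Irs2 (Tnfrsf19, 0.932, and Nup210, 0.902).

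The rest of the pathway was read through 60 genes in 5 roles. Of the 8 further carriers and proteases, Igfbp4 was highest in liver, at 4.42 ± 0.41 (SD, n = 6) against 0.28 ± 0.53 (SD, n = 6) in heart, a fold of 17.6 (limma adjusted p = 5.67e-11). Igfbp5, the binding protein of muscle and bone, was highest in muscle at 5.55 ± 0.35 (SD, n = 6) and 1.89 above heart (limma adjusted p = 3.85e-07). The number of carriers and proteases lower in liver than in heart was 6 of 8, beside 38.9% of all genes.

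Of the 12 receptors and adaptors, Enpp1, an inhibitor of the insulin receptor, was 12.5-fold higher in liver than in heart (limma adjusted p = 8.81e-09). Grb14, another inhibitor of the receptor, was highest in heart at 4.99 ± 0.33 (SD, n = 6) and 3.28-fold above liver (limma adjusted p = 2.23e-10). Among the 19 kinase cascade genes, 12 had their highest mean in muscle. Tsc1, an inhibitor of mTOR, was 2.88-fold higher in muscle than in heart (limma adjusted p = 9.01e-07). Lower in liver than in muscle were 11 of the 19, beside 43.9% of all genes, and higher were 5, beside 35.3%.

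Of the 14 FOXO factors and metabolic genes, G6pc and Pck1, the enzymes of glucose output that insulin represses, were the strongest liver genes. G6pc was 558-fold higher in liver than in heart (limma adjusted p = 5.19e-12), and Pck1 was 42.0-fold higher in liver than in muscle (limma adjusted p = 3.29e-04). In the growth hormone axis of 7 genes, all 7 were lower in brain than in heart, beside 44.1% of all genes. Stat5b was highest in muscle, 4.66-fold above heart (limma adjusted p = 1.16e-11). Cish, an inhibitor induced by STAT5, was highest in heart, 3.83-fold above liver (limma adjusted p = 0.00465). Ghr, the growth hormone receptor, was at 5.85 ± 0.11 (SD, n = 6) in liver and -0.42 ± 0.48 (SD, n = 6) in brain, tissues where Igf1 also lay at its extremes. Ghr did not follow Igf1 in muscle. There it was at 5.25 ± 0.50 (SD, n = 6), 0.59 below liver, where Igf1 was 6.21 below liver.

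**Figure D5:**
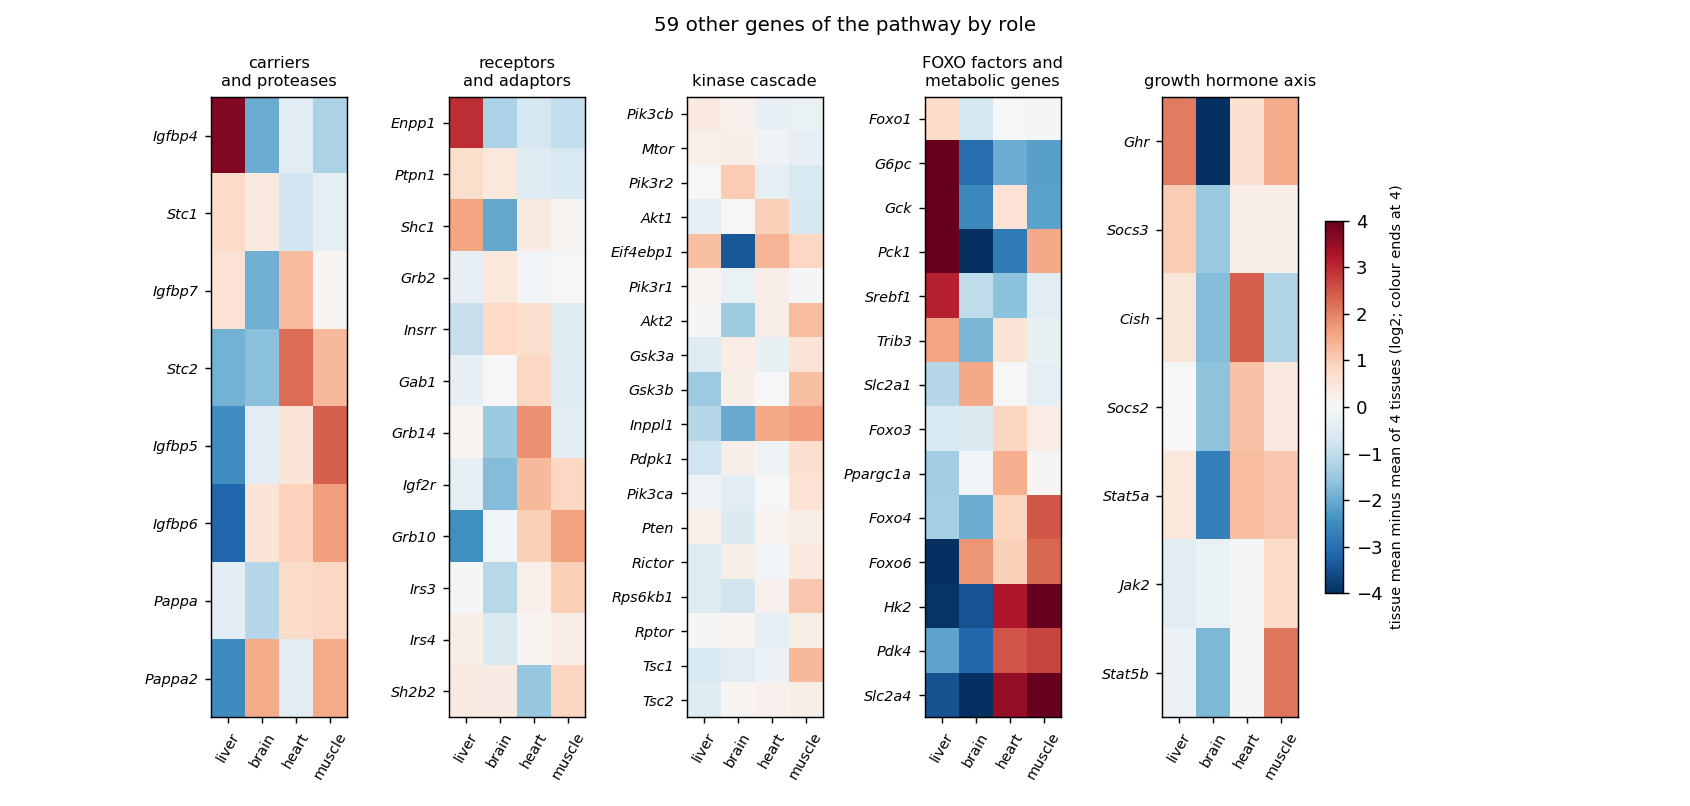
Mean level in each tissue minus the mean of the 4 tissues (colour, log2, ending at 4) for 59 of the 60 other genes of the pathway, by role and ordered by the tissue of their highest mean. Each cell rests on 6 arrays. G6pc, Pck1 and Igfbp4 stand out in liver, and Igfbp5, Stat5b and Tsc1 in muscle.

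None of the 60 pathway genes differed between genotypes at an adjusted p under 0.05. Of those tested, 12 of 53 did not overlap in liver, beside 19.7% of all genes (7 higher in KI, beside 12.2%, and 5 lower, beside 7.51%), and 7 of 53 had an unadjusted p under 0.05, beside 11.7%. The number without overlap was 2 of 57 in brain (2.86% of all genes), 5 of 58 in heart (5.04%) and 3 of 56 in muscle (3.54%), and unadjusted p under 0.05 were 0, 1 and 0. The medians of KI minus WT over the list were 0.0025, 0.03, -0.10 and 0.03 in the order of tissues above, and over all genes they were 0.04, -0.03, -0.05 and 0.02. The liver genes of smallest p were Hk2, a hexokinase of muscle (0.94 ± 0.27, SE, limma adjusted p = 0.382), Pik3r2, a regulatory subunit of PI3 kinase (-0.41 ± 0.12, SE, limma adjusted p = 0.394), and Igfbp7, a secreted protein of blood vessels (0.58 ± 0.18, SE, limma adjusted p = 0.399). Without the liver of KI mouse C, the array with muscle fibre transcripts, the differences were 0.83 for Hk2, -0.42 for Pik3r2 and 0.40 for Igfbp7, and their part in the Hk2 level was not tested. In heart Pik3ca, the catalytic subunit, had a difference of -0.40 ± 0.15 (SE, limma adjusted p = 0.971), or -0.33 without the heart of KI mouse B.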

How the data were processed

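Each sample's RNA was run in 1 colour (Cy3) on its own Agilent array, per the labels. The authors extracted spots with Feature Extraction 12.0.3.1 (per the file headers), and the deposited processed intensity was background-corrected but not normalized between arrays. The deposited value table holds a score that the authors made from the log intensity. A recomputed z-score within each array matched it in all 24 columns (largest difference 0.005), and the score served as an alternative.

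Control and outlier spots (121 to 347 per array) were left out, and probes were averaged over spots. log2 of the deposited intensity minus the 75th percentile of the array was the level. Probes were named through RefSeq (GRCm38.p6; 99.0% of 26732 curated accessions matched), and the probe of highest mean stood for a gene. The share of probes well above background was 49.4% to 68.4%.

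limma 3.58.1 in R 4.3.3 was fitted per tissue (genotype) and over 24 arrays (tissue, interaction), two-sided with Benjamini-Hochberg adjustment over all genes tested and a threshold of 0.05. Genes tested were well above background on all 3 arrays of a group. The fits were tested on simulated data. The authors' own array test is not given in the sources used here. The members, gene lists, tests and the rule for naming genes (all members; genotype results without overlap or of smallest p; at most 3 pathway genes per genotype comparison and 2 per role between tissues, by largest step from the highest tissue; 2 most correlated genes) were chosen with earlier results of these data known. The values of 1 pathway gene are not reported here. Ghr falls outside that rule and was chosen after its values were seen. Folds against probes not well above background are bounds, computed with each array's lowest level well above background.

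Numbers of the samples mark the same mouse in every tissue, and genotypes share no mouse. Deviations from group means correlated within a mouse by 0.0142 on average (36 pairs) and by -0.0065 between mice. Liver lay on 1 slide and muscle on another, while brain and heart arrays lay on 2 slides each with both genotypes. Slide as a block was a fixed term in the fit. Tissue and slide are largely confounded, so differences between tissues with that term rest on the brain and heart arrays that share slides. Each group is 3 mice, and the number of arrays limits the precision.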

Additional observations from a re-analysis of the deposited data

Results flagged for a closer look

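Among the 10 genes in 4 tissues, 40 sets of 6 arrays were looked at for 1 array far from the other 5. Chance alone marks about 1 in 20 such sets, and 4 were found here. Igf1 in the brain of KI mouse C was at 1.19, and the nearest other brain was at -2.12. Igfals in the heart of KI mouse B was at -4.47, with the nearest heart at -2.92. Insr in the same heart was at 1.27, with the nearest at 1.83. Insr in the brain of WT mouse E was at -0.43, with the nearest at -0.71. The first 3 lie on the arrays with hepatocyte and adipocyte transcripts, whose part in them was not tested.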

How the results depend on the processing

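Of 1348 values computed under other settings, 1277 had the main value's sign and call or, for counts, were within 1.5 times of it. No member passed the genotype threshold under any alternative run. Values that changed sign were all between tissues that did not differ: Irs1, liver minus heart, was -0.065 with quantile normalization, -0.074 with normexp (offset 50) before it and -0.012 in the deposited scores, Igfals, muscle minus heart, was -0.015 in those scores, and Irs2, brain minus muscle, was -0.71 with slide as a block. Leaving out 1 array moved Igfbp3 heart minus liver between -0.19 and 0.17, Igfals muscle minus heart between -0.17 and 0.31 and Irs2 brain minus muscle between -0.067 and 0.25. Without the 4 KI arrays set apart by transcripts of other tissues (chosen after seeing the data), Igfals, muscle minus heart, was -0.010, Igfbp3, heart minus liver, -0.27, and the call of Igfbp1 between brain and muscle was lost. Members differing between heart and muscle fell from 5 to 2 with slide as a block and ran from 3 (without the muscle of KI mouse C or WT mouse D) to 6 when 1 array was left out. Members without overlap between genotypes ran from 2 to 4 in liver (4 without WT mouse E), 0 to 3 in brain (3 without WT mouse F, 2 without KI mouse B), 0 to 2 in heart (2 without KI mouse A) and 0 to 2 in muscle (2 without WT mouse D). With fewer arrays, lack of overlap arises more often by chance. The shares over all genes in these runs are not given here, so the higher counts say nothing about single mice. The causes were not tested. With the mouse as replicate block (correlation -0.00137), heart and muscle still differed in 5 members and no call changed. With 3 arrays per genotype and dim signals for Igf2, Igfals and Igfbp1 outside their main tissues, small differences were not detectable.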
